A study of Homo sapiens with 10 samples.

Results

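The proteasome subunit genes are those whose symbols begin with PSMA, PSMB, PSMC, PSMD or PSME, and 38 of the 11880 genes in the deposited table were taken by this rule. PSMA and PSMB genes encode the core particle, PSMC and PSMD genes the regulatory particle that caps it together with its assembly chaperones, and PSME genes other activators of the core. The core (13 genes) was divided into the alpha ring (7) and the beta ring (6). The regulatory particle (16) was divided into base ATPases (5), base subunits that are not ATPases (3) and the lid (8). These 29 genes are called the constitutive subunits here. Apart from them stand 4 immune subunits (PSMB8, PSMB10, PSME1 and PSME2), 3 base assembly chaperones (PSMD5, PSMD9 and PSMD10) and 2 other activators (PSME3 and PSME4). PSMA8, PSMB7, PSMB11 and PSMC4 were not analysed here.

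The samples are 10 subclones of U87MG, an established human line derived from a glioma, in a single group without treatment. Sparse plating gave colonies that each came from 1 cell, and every subclone is the progeny of such a colony, numbered 1, 2, 3, 5, 6, 8, 9, 10, 11 or 12. All were grown attached in DMEM with fetal bovine serum, penicillin and streptomycin and were collected during exponential growth by trypsin treatment. Each was measured on 1 Affymetrix array, so each value of a subclone has no replicate, no subclone can be tested against another, and the spread between the 10 arrays may in part be technical.

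The proteasome is the protease that degrades most proteins tagged with ubiquitin in the cytosol and nucleus. Its core is a barrel of stacked rings with the proteolytic sites inside; the regulatory particle binds the tagged substrate, removes the ubiquitin, unfolds the substrate and feeds it into the barrel. Under interferon, immune subunits can replace catalytic subunits of the beta ring and the activator formed by PSME1 and PSME2 can cap the core, which changes the peptides offered to MHC class I molecules. In human cells the transcription factor NFE2L1 raises subunit genes together when proteasome activity is low.

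The values are RMA values on the log2 scale, 1 for each gene and array. Subclone 10 had the lowest median (4.87) and upper quartile (6.75) of all arrays, and subclone 9 the highest (5.11 and 7.36). Genes were tested where their highest value was at or above the median of the whole table, 5.00, which kept 7095 genes and all 38 proteasome genes. Over the tested genes, the median difference from a gene's own mean ranged from -0.29 (subclone 10) to 0.11 (subclone 9), and differences of subunit classes are therefore also given relative to that of their array. The glioma-associated genes CD44 (9.83 ± 0.27, SD, n = 10) and CHI3L1 (11.81 ± 0.73) were well above that median, whereas the astrocyte genes GFAP, SOX2 and S100B lay below it on all 10 arrays. All 7 markers of leukocytes, endothelium and epithelium lay below it on all arrays, at 2.97 to 4.56.

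Proteasome genes spanned a narrower range over the subclones than most tested genes. A range of at least 2-fold between the lowest and highest subclone was found for 14 of the 38 genes, which is 36.8%. The background was 63.3% of all tested genes, and 59.5% of the 3851 tested genes whose mean lay between 6.40 and 11.26, the span of the proteasome genes' means. When the table was quantile-normalized, the count was 8 of the 38 genes, against 58.0% of all tested genes. The median SD was 0.29 for the 38 genes, 0.37 for all tested genes and 0.35 for genes of like mean. Among the classes, 3 of 13 core genes, 6 of 16 regulatory particle genes, 4 of 4 immune genes, 1 of 2 other activators and 0 of 3 base chaperones reached a 2-fold range. The median range was 1.73-fold in the core, 1.90-fold in the regulatory particle, 2.54-fold among immune subunits and 1.42-fold among base chaperones.

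**Figure D1:**
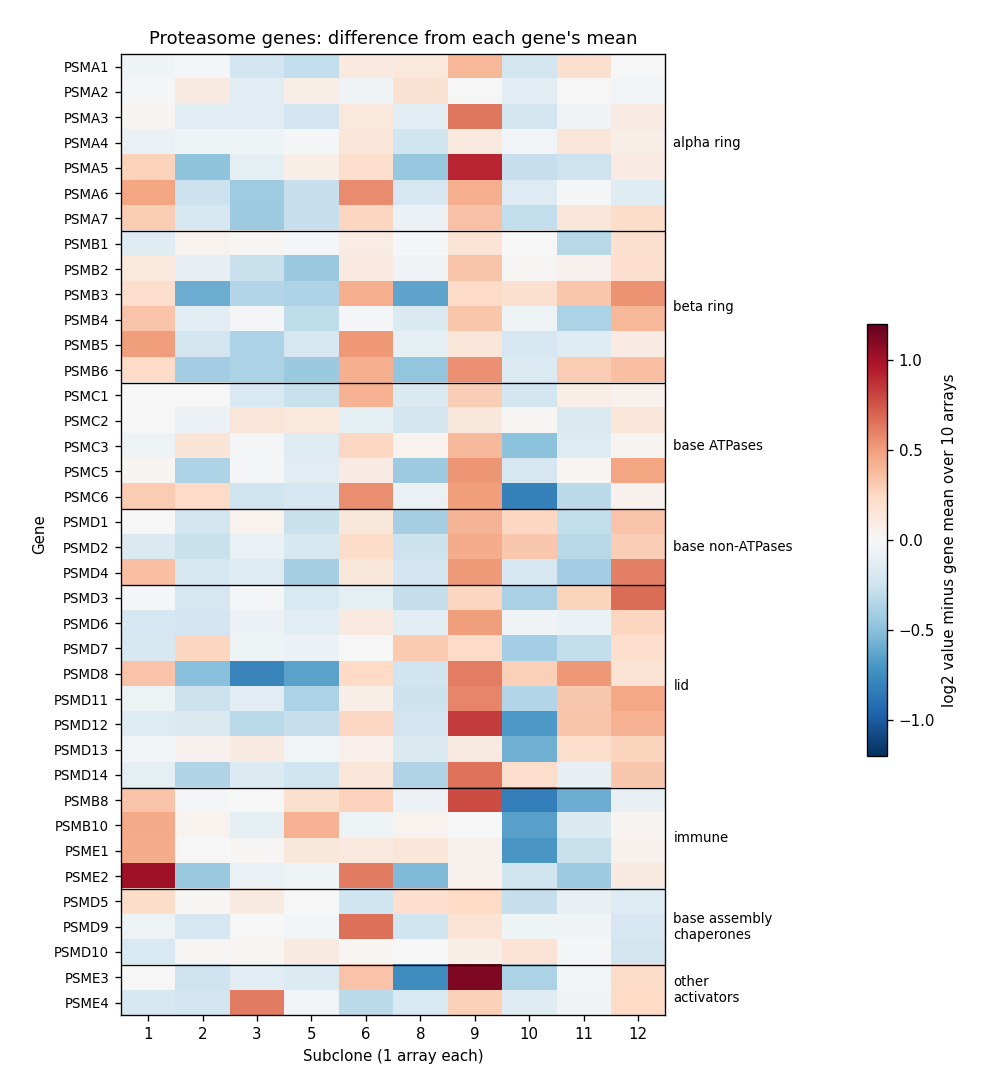
Difference of each proteasome gene's log2 value from its mean over the 10 arrays (colour), with genes in rows by class and subclones in columns. Subclone 9 is above the gene mean in all 38 rows. The median of the immune rows departs most from that of the constitutive rows in subclones 1, 5, 9, 10 and 11, where single rows still overlap.

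By limma's robust variance test, which sets each gene's variance against that of genes of like mean, 0 of 7095 genes (0%) and 0 of 38 proteasome genes passed an adjusted p of 0.05. At an unadjusted p under 0.05 these were 350 and 0 genes. The spread of variances this test expects was fitted to these same genes, so it finds only genes beyond that spread. It does not show that no gene varies between subclones. A chi-square test that compares each variance with the trend over mean expression, and ignores the wide spread of variances between genes, called 1441 genes (20.3%) and 6 of the 38 proteasome genes (8 at an unadjusted p under 0.05). The 6 were PSMB3 (adjusted p = 1.29e-05), PSMD8 (0.00164), PSME2 (0.00631), PSMA5 (0.0103), PSMB6 (0.0163) and PSMA6 (0.033), from that chi-square test over all tested genes. They are 15.8% of the 38 genes and belong to the core, the lid or the immune subunits.

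The alpha ring forms the outer rings of the barrel and its gate. PSMA5, an alpha ring subunit, was lowest in subclone 2 at 9.87, had a median of 10.34 and reached 11.26 in subclone 9, a 2.63-fold range and the widest in the core. Its values in the other subclones lay at 9.90 in subclone 8, 10.07 in 10, 10.10 in 11, 10.25 in 3, 10.43 in 5, 10.45 in 12, 10.56 in 6 and 10.63 in 1. Subclone 9 was thus set apart from a continuous series of the other 9, 2.03-fold above their median of 10.25. PSMA3 had the same single high subclone, with 11.14 in subclone 9 against 10.28 to 10.64 in the others.

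PSMA6 followed another order. It was at 11.26, 11.16 and 11.12 in subclones 6, 1 and 9, and between 10.27 in subclone 3 and 10.67 in subclone 11 in the other 7, so that 3 subclones lay above the rest with no overlap. PSMA7 reached 11.08, 11.03 and 10.99 in subclones 9, 1 and 6, and its lowest value was 10.30 in subclone 3. PSMA1 spanned 10.38 in subclone 5 to 11.07 in subclone 9. The remaining alpha genes varied little: PSMA4 lay between 9.65 and 10.04, and PSMA2 between 8.92 and 9.24, with an SD of 0.10 that was the lowest of the 38 genes.

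The beta ring carries the proteolytic sites, of which PSMB5 provides the chymotrypsin-like and PSMB6 the caspase-like activity. PSMB6 lay lowest in subclones 8, 5, 2 and 3 (9.80, 9.82, 9.86 and 9.90), followed by 10.11 in 10, 10.51 in 1, 10.58 in 11, 10.63 in 12, 10.70 in 6 and 10.82 in 9. PSMB3, a beta subunit without catalytic activity, was lowest in subclones 8, 2, 5 and 3 (10.52, 10.57, 10.78 and 10.81) and lay at 11.35 to 11.70 in the other 6. The same 4 subclones were lowest for both genes (r = 0.90 and Spearman rho = 0.90 between the genes over 10 subclones). The SDs were 0.41 and 0.44, and the ranges 2.03-fold and 2.26-fold.

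PSMB5 was at 9.92 in subclone 6 and 9.90 in subclone 1, then 9.54 in 9 and 9.49 in 12, and between 9.03 in subclone 3 and 9.29 in subclone 8 in the other 6. Its order was close to that of PSMA6 (r = 0.92, or 0.79 without subclones 1 and 6, the farthest from the median of PSMA6). PSMB4, a beta subunit without catalytic activity, was at 11.47, 11.41 and 11.40 in subclones 12, 1 and 9, and between 10.69 in subclone 11 and 11.05 in subclone 6 in the other 7. PSMB2 spanned 10.28 in subclone 5 to 11.07 in subclone 9, and PSMB1 10.92 in subclone 11 to 11.45 in subclone 12.

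The base of the regulatory particle holds a ring of ATPases that unfold substrates. PSMC6, one of these ATPases, was lowest in subclone 10 at 7.14, had a median of 7.94 and was highest in subclone 6 at 8.51. The value in subclone 10 was 1.82-fold below the median of the other 9, of which the next lowest was 7.64 in subclone 11. PSMC3 shared this order (r = 0.91, or 0.78 without subclones 9 and 10), from 9.24 in subclone 10 to 10.12 in subclone 9. PSMC5 spanned 9.30 in subclone 8 to 10.27 in subclone 9, PSMC1 10.01 in subclone 5 to 10.70 in subclone 6, and PSMC2 10.64 to 11.01.

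PSMD1 and PSMD2 are the large scaffold subunits of the base, and PSMD4 is a receptor for ubiquitin chains. PSMD2 was highest in subclones 9, 10, 12 and 6 (10.76, 10.64, 10.61 and 10.53), and its other 6 values lay between 9.98 and 10.24. PSMD1 was highest in the same 4 subclones, at 10.02, 9.86, 9.95 and 9.75, and lowest in subclone 8 at 9.21 (r = 0.94 between the genes, and 0.93 without subclones 8 and 9). These genes were thus above their own means in subclone 10, where most tested genes were below theirs. PSMD4 was at 10.28, 10.19 and 10.04 in subclones 12, 9 and 1, at 9.81 in subclone 6, and between 9.26 in subclone 11 and 9.52 in subclone 3 in the other 6.

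The lid sits beside the base and holds PSMD14, the metalloprotease that cuts ubiquitin off the substrate. PSMD14 was at 10.97 in subclone 9, then 10.64 in 12, 10.53 in 10 and 10.47 in 6, and between 9.96 and 10.22 in the other 6, a 2.02-fold range. PSMD8 was at 9.14 in subclone 3, 9.29 in 5, 9.42 in 2 and 9.69 in 8, and between 10.09 and 10.54 in the other 6, with the highest value in subclone 9. The 4 lowest subclones were those of PSMB3 and PSMB6, and the SD of 0.50 was the largest of all constitutive subunits. The plot of 5 subunit genes by subclone shows this set beside PSMB4 and PSMD4.

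**Figure D2:**
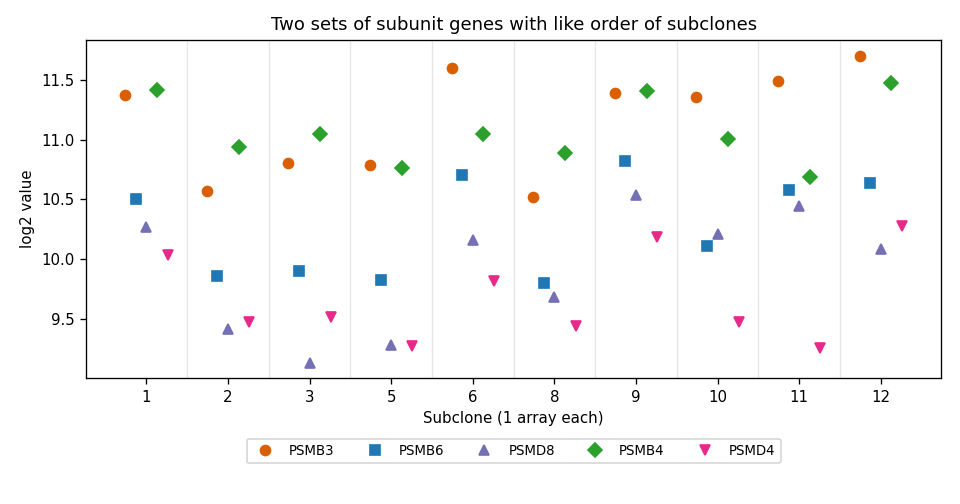
Log2 values of PSMB3, PSMB6, PSMD8, PSMB4 and PSMD4 by subclone, 1 array each. The first 3 genes have their 4 lowest values in subclones 2, 3, 5 and 8, whereas PSMB4 and PSMD4 are highest in subclones 12, 1 and 9 and lowest in subclone 11.

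PSMD11 and PSMD12, scaffold subunits of the lid, had nearly the same order (r = 0.94, or 0.87 without subclones 9 and 12). PSMD12 was at 9.62, 9.20, 9.13 and 9.03 in subclones 9, 12, 11 and 6, between 8.47 and 8.63 in subclones 1, 2, 3, 5 and 8, and lowest in subclone 10 (8.10). PSMD11 was at 9.38, 9.26, 9.12 and 8.87 in the first 4 of these and between 8.41 and 8.73 elsewhere. PSMD3 had its highest value in subclone 12, at 9.46, and then 9.07 in 11 and 9.06 in 9, with 8.41 to 8.78 in the other 7.

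PSMD13 was lowest in subclone 10, at 7.38, and lay between 7.79 and 8.22 elsewhere. PSMD6 spanned 9.70 in subclone 2 to 10.43 in subclone 9. PSMD7, the structural partner of PSMD14, spanned 7.70 in subclone 10 to 8.42 in subclone 8. Its mean r with the constitutive subunits was 0.20, compared with 0.55 for PSMD14.

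The base assembly chaperones hold parts of the ATPase ring during assembly and leave the finished particle. PSMD10 (gankyrin) lay between 9.02 in subclone 12 and 9.41 in subclone 10, and PSMD5 between 7.27 in subclone 10 and 7.78 in subclone 9. PSMD9 was at 8.07 in subclone 6 and between 7.17 and 7.57 in the other 9, so that 1 subclone stood 1.64-fold above the median of the rest. These genes shared no order (mean pairwise r = -0.09). PSMD10 had a mean r of -0.27 with the constitutive subunits, and its lowest value was in subclone 12, where 26 of the 29 constitutive subunits lay above their means.

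PSME3 encodes a nuclear activator of the core and PSME4 a large activator linked to histone degradation. PSME3 had the widest range of the 38 genes, 3.64-fold, from 5.82 in subclone 8 to 7.68 in subclone 9, with 6.91 in 6, 6.78 in 12 and 6.18 to 6.57 in the other 6. Its value in subclone 9 was 2.37-fold above the median of the other 9, and its mean r with the constitutive subunits was 0.62. PSME4 was highest in subclone 3 (7.02), its other values lay between 6.09 and 6.68, and its mean r was 0.13. Their means were 6.56 and 6.40.

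The immune subunits are shown with part of their promoters, because all 4 held the same 10 letters close to the start of the gene. The search was for GAAA followed, after any 2 bases, by GAAA, the core of the interferon-stimulated response element, on both strands, in windows from 250 bases before to 50 bases after each gene's start (RefSeq, GRCh38.p14). A window was given for 34 of the 38 genes, and not for PSMA7, PSMB1, PSMB6 and PSMD4. Some genes had windows at more than 1 annotated start (35116 windows for 27305 genes), and a match in any of them counted. The match lay on the gene's strand in PSMB10 and PSME2 and on the opposite strand in PSMB8 and PSME1. In the stretches of 60 bases below, written along the gene's strand, capitals mark the match.
PSMB8, chr6:32844036-32844095, minus strand, match from -4 to +6: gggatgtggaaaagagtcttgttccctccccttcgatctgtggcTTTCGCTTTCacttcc
PSMB10, chr16:67936856-67936915, minus strand, match from -21 to -12: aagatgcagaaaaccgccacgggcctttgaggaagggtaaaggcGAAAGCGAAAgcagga
PSME1, chr14:24136155-24136214, plus strand, match from +6 to +15: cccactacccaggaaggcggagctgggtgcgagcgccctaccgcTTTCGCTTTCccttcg
PSME2, chr14:24146623-24146682, minus strand, match from -28 to -19: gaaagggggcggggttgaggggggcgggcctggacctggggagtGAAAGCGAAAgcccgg
Positions count from +1 at the annotated start used for that window, with no position 0.

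The response element core was present in 4 of 4 immune subunit genes and in 2 of the 30 other proteasome genes with a window (PSMA4 and PSMB4). It was present in 4.38% of the 27305 genes with a window. The exact letters GAAAGCGAAA, or TTTCGCTTTC on the other strand, were searched after the matches had been seen. They occurred in 34 of those genes (0.125%), of which 4 were proteasome genes, all of them immune subunits. The gamma-activated sequence TTCNNNGAA, another interferon-related motif, was found in 1 of the 4 (PSMB8) and in 5 of the 30 others, against 9.38% of genes. CCAAT was found in 0 of 4 immune and 17 of 30 other proteasome genes, against 39.7% of genes. A match of letters describes the window and does not show binding.

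The immune subunits were expressed in all subclones, each with a range over 2-fold. PSMB8, which takes the place of PSMB5 in the immune form of the barrel, was at 7.88 in subclone 9, 7.44 in 1, 7.38 in 6, 7.29 in 5, 7.01 to 7.11 in subclones 2, 3, 8 and 12, 6.50 in 11 and 6.28 in 10. Subclones 10 and 11 lay below the rest, 1.78-fold and 1.52-fold under the median of the other 9. PSMB10, which takes the place of PSMB7, was at 8.23 in subclone 1 and 8.19 in subclone 5, 7.60 to 7.82 in the next 7 and 7.12 in subclone 10.

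PSME1 and PSME2 form a single ring-shaped activator but did not share 1 order of subclones. PSME1 was at 9.78 in subclone 1, 9.34 to 9.48 in the next 7, 9.06 in 11 and 8.64 in 10. PSME2 was at 10.74 in subclone 1 and 10.35 in subclone 6, at 9.83 in 12, 9.77 in 9, 9.67 in 5, 9.65 in 3 and 9.49 in 10, and at 9.19 to 9.29 in subclones 2, 8 and 11. Subclone 1 was therefore highest for both, 2.13-fold above the median of the others in PSME2, whereas subclone 10 was lowest for PSME1 and near the middle for PSME2. PSMB10 and PSME1 had an r of 0.91, which was 0.59 without subclones 1 and 10.

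**Figure D3:**
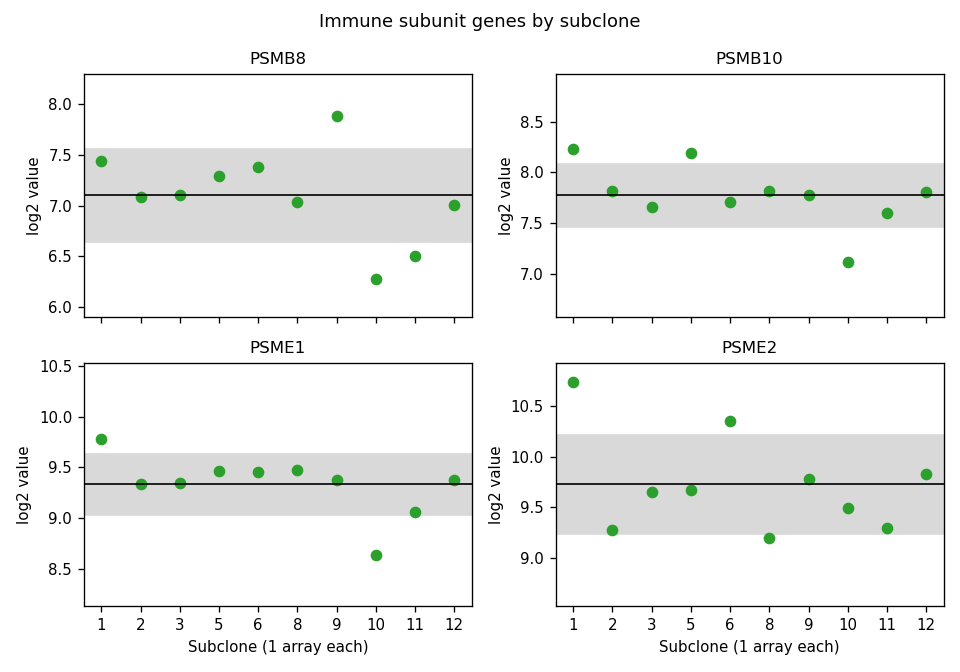
Log2 values of the 4 immune subunit genes by subclone (points, 1 array each), with the mean (line) and 1 SD over the 10 arrays (grey band). Subclone 1 is highest for PSMB10, PSME1 and PSME2, and subclone 10 is lowest for PSMB8, PSMB10 and PSME1.

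Of the 4 immune subunits, 3 were highest in subclone 1, where 7.43% of all tested genes had their highest value, and 3 were lowest in subclone 10, where 31.8% of tested genes had their lowest. The immune subunits' median difference from their means came to 0.45 (subclone 1), -0.35 (subclone 11) and -0.67 (subclone 10). Relative to each array's median difference these were 0.47, -0.27 and -0.39. The constitutive subunits had relative values of 0.02, 0.06 and 0.09 in the same 3 subclones, and each of these took the opposite sign in at least 1 other setting, the lowest values being -0.03, -0.06 and -0.11. In subclone 9 the constitutive subunits stood at 0.29 relative to the array and the immune subunits at -0.06, although PSMB8 itself had its highest value there. All 4 immune subunits lay above their own means in subclone 9. Their relative value there took either sign in the other settings, from -0.09 to 0.11.

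The balance between PSMB8 and PSMB5, the immune and the constitutive form of 1 position in the ring, was followed as the difference of their log2 values around its own mean over the 10 subclones. It was highest in subclone 9 (0.64), 5 (0.39) and 3 (0.37) and lowest in subclones 10 (-0.62) and 11 (-0.45). The remaining 5 subclones lay between -0.24 and 0.21. The high value in subclone 9 came with a PSMB5 level near its mean (9.54 against 9.40), and those in 3 and 5 with PSMB5 levels of 9.03 and 9.19 and PSMB8 levels of 7.11 and 7.29.

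The subclones differed in how many of the 29 constitutive subunits lay above their own means. In subclone 9 all 29 lay above their own means (all 38 proteasome genes, against 60.2% of tested genes), in subclone 12 26 and in subclone 6 25, whereas in subclone 5 3 and in subclones 3 and 8 4 each did. In subclones 1 and 11 it was 13 each (44.8%), against 47.2% and 41.1% of tested genes, and in subclones 2 and 10 7 each (24.1%), against 58.1% and 23.3%. The shares of all tested genes were 53.8% in subclone 12, 52.5% in 6, 56.5% in 5, 57.6% in 3 and 47.9% in 8. The count of 38 in subclone 9 was 33 with each array centred on its median and 31 after quantile normalization. Relative to the array, the median difference of the constitutive subunits was 0.29 in subclone 9, 0.19 in 12 and 0.12 in 6, and it was -0.28 in subclone 5, -0.26 in 2 and -0.19 in both 3 and 8. A culture in which every cell carries more of an mRNA and 1 in which more cells carry it cannot be told apart in these bulk samples. The array of subclone 9 also had the highest median value of all arrays, and the part of this in the result was not tested.

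**Figure D4:**
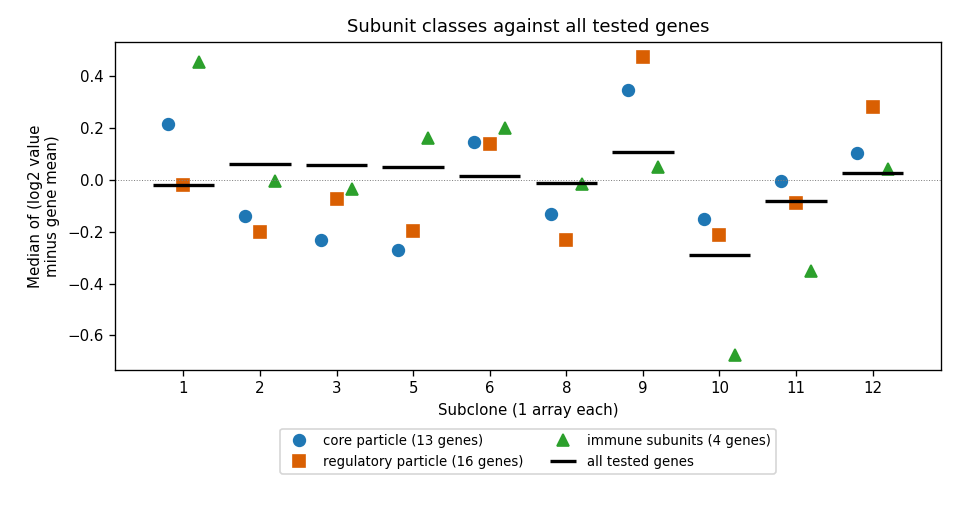
Median difference from the gene mean (log2) by subclone for core, regulatory particle and immune subunit genes (points) and for all 7095 tested genes (black bars). Core and regulatory particle lie together below the bar in subclones 2, 3, 5 and 8 and above it in subclones 6, 9, 10 and 12. The immune subunits depart most from both in subclones 1, 5, 9, 10 and 11.

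The classes within the particle differed in some subclones. In subclone 9 the median difference was 0.55 in the lid, 0.45 in base subunits that are not ATPases, 0.40 in the alpha ring and 0.28 in the beta ring. In subclone 10 it was 0.24 in base subunits that are not ATPases and -0.37 in the lid, and in subclone 11 -0.33 and 0.24. In subclone 1 it was 0.22 in the beta ring, with 9 of 13 core genes above their means, and -0.08 in the lid, with 1 of 8 above. These are medians of few genes on 1 array each and were not tested.

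A gene was counted as set apart in a subclone when it lay at least 1.5-fold above or below the median of the other 9. This was so for 24 pairs of a proteasome gene and a subclone above and 17 below. In these, 22 of the 38 genes were involved, a count without a computed background. By subclone, 0% to 26.3% of proteasome genes were set apart above, against 5.4% to 19.2% of tested genes. Below, the shares were 0% to 13.2%, against 2.55% to 29.2% of tested genes. In subclone 9, 10 of 38 (26.3%) were set apart above, against 19.2% of tested genes: PSMA3, PSMA5, PSMB6, PSMB8, PSMD2, PSMD4, PSMD11, PSMD12, PSMD14 and PSME3. In subclone 6, 6 of 38 (15.8%) were set apart above, against 5.4% of tested genes: PSMA6, PSMB5, PSMB6, PSMC6, PSMD9 and PSME2. In subclone 12 these were PSMD3, PSMD4, PSMD11 and PSMD12, all of the regulatory particle (4 of 38, background 6.47%), with PSMD4 1.74-fold and PSMD3 1.71-fold above. In subclone 1 they were PSMA6, PSMB5 and PSME2 (6.65%), and in subclone 3 PSME4 (10.4%), which was 1.71-fold above.

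Of the genes set apart below, 4 were so in more than 1 subclone. PSMB6 was among them in subclones 2, 3, 5 and 8, PSMB3 in 2, 5 and 8, PSMD8 in 2, 3 and 5, and PSMB8 in 10 and 11. PSME3 was the other gene set apart below in subclone 8. The backgrounds were 2.55% in subclone 2 (3 of 38 proteasome genes), 2.97% in 3 (2 of 38), 3.72% in 5 (3 of 38) and 6.05% in 8 (3 of 38). PSMB3 was 1.75-fold below in subclone 2 and 1.80-fold below in subclone 8, and PSMD8 was 2.04-fold below in subclone 3 and 1.83-fold below in subclone 5. In subclone 10, PSMB8, PSMB10, PSMC6, PSMD13 and PSME1 were set apart below, 13.2% of the 38 genes against 29.2% of tested genes. These 5 became 3 with each array centred on its median and 0 after quantile normalization. In subclone 11 it was PSMB8 alone, against 17.5% of tested genes. Over all subclones the 17 pairs below became 11 without subclone 11 and 11 after quantile normalization. The other 9 combinations of subclone and direction had 0 proteasome genes, against 4.82% to 11.1% of tested genes.

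Proteasome genes varied together over the subclones. A Pearson r above 0 was found for 369 of 406 pairs of constitutive subunits (90.9%), a share that was not computed for all tested genes. The mean r over these pairs was 0.46, against a mean r of 0.07 among all tested genes and 0.10 among those of like mean. It was 0.44 within the core, 0.48 within the regulatory particle and 0.45 for pairs with 1 gene from each. By class it was 0.43 in the alpha ring, 0.52 in the beta ring, 0.43 in the ATPases, 0.79 in the other base subunits and 0.51 in the lid. All these correlations describe 10 arrays that were normalized together and share their overall shifts, so they carry no test. Without subclone 9 the mean r of the constitutive subunits was 0.35, the lowest of all leave-one-out values.

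The immune subunits had a mean r of 0.64 among themselves and 0.25 with the constitutive subunits. The latter was 0.14 without subclone 10 and 0.145 after quantile normalization. PSMB8 had an r of 0.85 with PSMC6 and 0.81 with PSMC3, above those with PSME1 (0.78), PSMB10 (0.67) and PSME2 (0.51). Without subclones 9 and 10 this order changed: PSME1 was at 0.87, PSME2 at 0.71, PSMB10 at 0.65, PSMC6 at 0.64 and PSMC3 at 0.36. PSME2 had an r of 0.85 with PSMB5 and 0.73 with PSMA6, or 0.42 and 0.25 without subclones 1 and 6. With all subclones both were above those with PSME1 (0.55) and PSMB10 (0.44). PSMB8 was closest to the constitutive subunits (mean r = 0.40), followed by PSME2 (0.32) and PSME1 (0.19), and PSMB10 was farthest (0.08). The constitutive genes most like the others were PSMA3 (0.63), PSMB6, PSMC5, PSMD12 and PSMD11 (all 0.60). PSMA2 was the only constitutive subunit with a negative mean r (-0.15), and PSMC2 (0.16) and PSMD7 (0.20) followed. PSMA2 and PSMC2 are also among the genes with the smallest SD, 0.10 and 0.14.

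**Figure D5:**
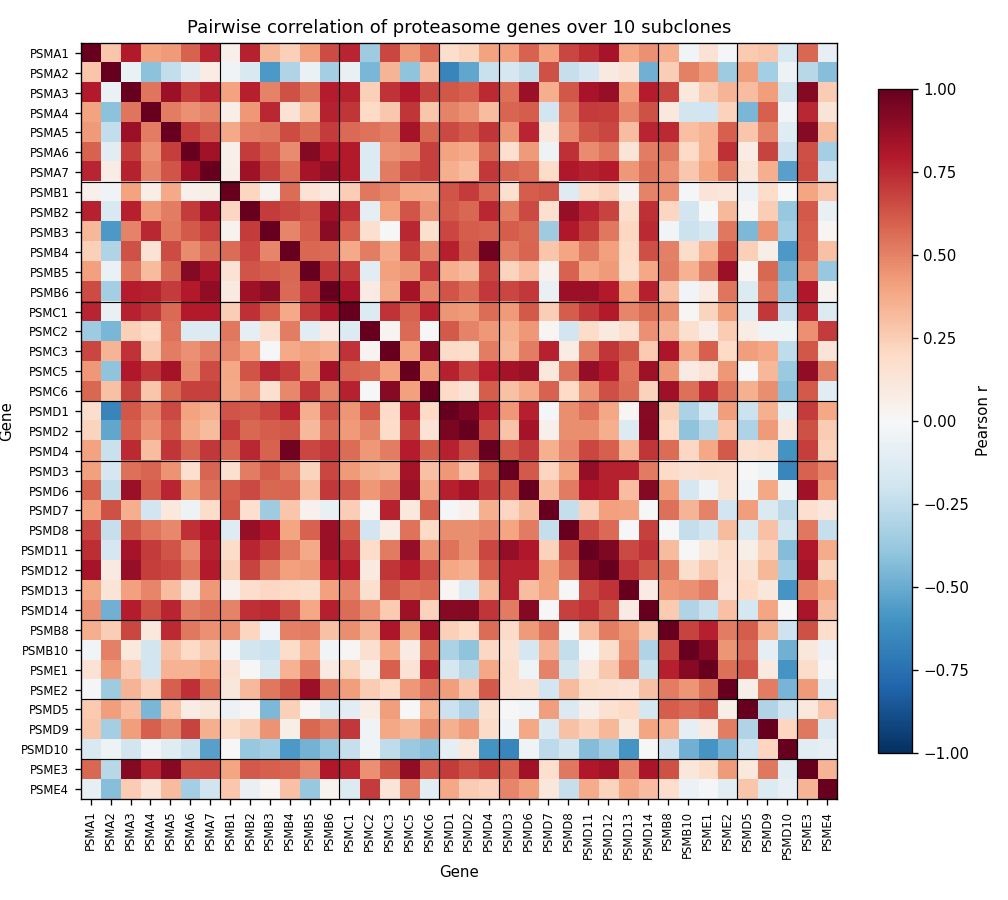
Pearson r over the 10 subclones for each pair of the 38 proteasome genes (colour from -1 to 1), with lines between the classes. Core and regulatory particle form 1 block of mostly positive values. PSMA2, PSMC2 and PSMD7 have the lowest mean r within it (-0.15, 0.16 and 0.20), although single pairs are higher, up to 0.77 for PSMC3 and PSMD7. The 4 immune subunits are positive with each other, at 0.44 to 0.91.

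The closest pair of the 703 was PSMB4 and PSMD4, a core and a base gene, with an r of 0.97 and a Spearman rho of 0.98, and an r of 0.94 without subclones 1 and 12. Their genes lie near each other on chromosome 1, with 4 coding genes between them, of which PI4KB and RFX5 were tested. The mean r of these 2 genes with the pair was 0.66. PSME1 and PSME2 are also neighbours, on chromosome 14, with 1 coding gene (EMC9) between them that was not tested. Of the other close pairs, PSMD1 and PSMD2 (r = 0.94), PSMD11 and PSMD12 (0.94) and PSMD2 and PSMD14 (0.92) belong to the regulatory particle, and PSMD11 and PSMD12 lie on the same chromosome.

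The 38 genes lie on 15 chromosomes, with 7 on chromosome 17 (PSMB3, PSMB6, PSMC5, PSMD3, PSMD11, PSMD12 and PSME3), 7 on chromosome 14 (PSMA3, PSMA6, PSMB5, PSMC1, PSMC6, PSME1 and PSME2) and 4 on chromosome 1 (PSMA5, PSMB2, PSMB4 and PSMD4). In several subclones the other tested genes of chromosomes 17 and 14 had medians on the same side of 0 as the proteasome genes there. On chromosome 17 the median difference of the 7 proteasome genes was 0.55 in subclone 9, 0.46 in 12, -0.35 in 10 and -0.43 in 8, and that of the 344 other tested genes was 0.22, 0.22, -0.47 and -0.16. On chromosome 14 it was 0.52 in subclone 6 and 0.45 in subclone 1 for the proteasome genes, and 0.23 and 0.12 for the 206 other tested genes. The sides differed in the following subclones. On chromosome 17 they were 1 and 5, with 0.01 and -0.28 for the proteasome genes and -0.03 and 0.01 for the others. On chromosome 14 they were 2 and 12, with -0.14 and 0.05 against 0.07 and -0.11. These values are not relative to the array, whose median over all tested genes was 0.11 in subclone 9 and -0.29 in subclone 10. The part of the array shift or of gene dosage in these values was not tested.

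Factors that build the particle were followed as a list. Of 7 listed assembly factors 4 were tested, and 0 of the 4 reached a 2-fold range or were called by limma's robust test (0 also unadjusted) or the chi-square test. POMP, the maturation factor of the core, reached 11.05, 11.00 and 10.96 in subclones 9, 11 and 1 but stood at 10.44 to 10.55 in subclones 2, 3, 5 and 8, the 4 subclones in which PSMB3, PSMB6 and PSMD8 were low. PSMG1, a chaperone of the alpha ring, was likewise at 8.47 to 8.62 in these 4 and at 8.82 to 9.17 in the other 6. The mean r of these 2 genes with the constitutive subunits was 0.50 and 0.51, and it was 0.20 for PSMG2, the partner of PSMG1. The other 2 tested factors did not share this pattern. PSMG2 lay at 10.37 to 10.63 in these 4 subclones and at 10.26 to 10.75 in the other 6. PAAF1, with the largest SD of the list (0.25), lay at 6.83 to 7.02 in the 4 and at 6.31 to 7.14 elsewhere (mean r = 0.18).

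Among proteins that join the particle or bring substrates to it, 11 of 15 were tested, 4 reached a 2-fold range (UCHL5, USP14, KIAA0368 and TXNL1) and 0 were called by limma's robust test (0 also unadjusted) or the chi-square test. ADRM1, a ubiquitin receptor of the base, ranged from 9.19 in subclone 8 to 10.16 in subclone 12 (mean r = 0.49 with the constitutive subunits). SHFM1, the smallest lid subunit, which lies outside the naming rule, stayed between 10.26 and 10.61 and had a mean r of -0.37. UCHL5, a deubiquitinase bound through ADRM1, ranged from 5.79 in subclone 11 to 6.99 in subclone 6. Of 4 tested genes for ubiquitin and its activation, UBA6, a ubiquitin-activating enzyme, spanned 6.13 (subclone 12) to 7.88 (subclone 3) and was the only one over 2-fold and past the chi-square test. Its mean r with the constitutive subunits was -0.42.

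The NFE2L1 pathway list had 8 tested genes of 11, of which MAFF and MAFG, small partners of NFE2L1 on DNA, reached a 2-fold range and MAFF passed the chi-square test. By limma's robust test, 1 gene of the list had an unadjusted p under 0.05 and 0 passed after adjustment. MAFF had 10.15 in subclone 9, against 7.59 to 9.05 elsewhere. NFE2L1 itself was highest in subclones 9, 11 and 12 (9.67, 9.61 and 9.51) and lowest in subclone 10 (8.86), with a mean r of 0.35 with the constitutive subunits. That of NFE2L2, a related factor, was 0.52. Over the 8 tested genes this mean r ranged from -0.07 (SEL1L) to 0.52 (NFE2L2) and averaged 0.22. Levels of mRNA do not show the activity of NFE2L1, which is set by its processing.

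The letters TGACNNNGC are the core of the antioxidant response element that NFE2L1 and NFE2L2 bind. They were found on either strand in 11 of the 34 proteasome genes with a window (32.4%) and in 16.1% of all 27305 genes. The 11 genes were PSMA4, PSMB3, PSMC5, PSMD1, PSMD3, PSMD5, PSMD9, PSMD12, PSME1, PSME2 and PSME4. Windows are shown for the 4 of them on chromosome 17, where they include PSMB3 and PSMD12, which had some of the wider ranges among constitutive subunits. Capitals mark the match. PSMC5 also had a window at an earlier start (chr17:63827181-63827480), which held no match. The stretch shown for PSMC5 lies downstream of that window.
PSMB3, chr17:38752592-38752651, plus strand, match from -104 to -96: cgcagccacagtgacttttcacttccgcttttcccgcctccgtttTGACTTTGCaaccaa
PSMC5, chr17:63827619-63827678, plus strand, match from -57 to -49: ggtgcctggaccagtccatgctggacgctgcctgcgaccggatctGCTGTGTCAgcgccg
PSMD3, chr17:39980725-39980784, plus strand, match from -37 to -29: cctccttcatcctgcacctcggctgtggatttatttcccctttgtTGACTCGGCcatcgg
PSMD12, chr17:67366728-67366787, minus strand, match from -165 to -157: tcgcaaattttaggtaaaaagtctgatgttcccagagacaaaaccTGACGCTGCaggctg
The 4 genes did not share 1 order of subclones. PSMD3, PSMD12 and PSMC5 were above their means in subclones 9 and 12, and so was PSMB3, but PSMB3 was above its mean in subclone 10, where the other 3 were below theirs.

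Class I antigen processing genes and interferon regulators had a mean r of 0.16 with the immune subunits. Of 12 listed genes 8 were tested, 3 reached a 2-fold range, 4 passed the chi-square test and 0 the robust test of limma (0 also at an unadjusted p under 0.05). TAP1, the peptide transporter, was at 7.97 in subclone 1, 7.66 in 11, 7.44 in 6 and 7.38 in 9 and at its lowest, 6.08, in subclone 2. Its r was 0.64 with PSME2 and 0.13, 0.07 and 0.12 with PSMB8, PSMB10 and PSME1. IRF1, an interferon regulator, was highest in subclones 9 and 11 (7.34 and 7.14) and lowest in subclone 10 (6.10). In subclone 11, TAP1 and IRF1 were thus among their highest values while all 4 immune subunits were below their means. HLA-B and HLA-C, heavy chains of class I molecules, had mean r values of -0.49 and -0.55 with the constitutive subunits.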

How the data were processed

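RNA of 10 U87MG subclones was measured on 1 Affymetrix array each. The authors deposited 1 log2 value per gene symbol and array, made with RMA per the submitters' processing notes. No source names the log2 unit; it was inferred from RMA's definition and the range of the values. For the array type, the software version and the rule that joined probe sets into genes, nothing is given in the sources used here. RMA includes quantile normalization of probe signals, yet the deposited gene values still differ in median between arrays, so differences are also given relative to each array's median difference; total RNA per cell cannot be read from them. The number of arrays limits the precision.

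The proteasome genes and the accompanying lists were chosen with earlier results of these data known. Some genes are not reported here. Tested genes had a highest value at or above the table median. Variances were compared with those of genes of like mean by limma 3.58.1 (R 4.3.3), using the robust variance test with Benjamini-Hochberg adjustment; the non-robust fit and a chi-square test against the non-robust trend were alternatives. These scripts were tested on simulated data. In each subclone the 2 proteasome genes with the largest distance to the median of the other 9 are named; all 38 proteasome genes are given with their ranges. Deviations, correlations, chromosome medians and promoter matches were computed with Python 3.11.15, numpy 2.4.6, pandas 2.3.3 and scipy 1.17.1, and figures drawn with matplotlib 3.10.9. Identical columns were found 0 times. Chromosomes came from RefSeq by current symbol for 6328 of 7095 tested genes and for all 38 proteasome genes. Alternatives were centring each array on its median, quantile normalization of the table, other filters, other folds, class means and leaving out each subclone. The reference of genes of like mean was added after the data were seen.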

Additional observations from a re-analysis of the deposited data

Results flagged for a closer look

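Each of the 38 proteasome genes was examined for a single subclone far from the other 9, by the gap to the nearest value as a share of the whole range (Dixon's critical value for 10 samples). The nominal chance rate is about 1 in 20 genes, and 3 of 38 were found. The share of all tested genes flagged in this way was not computed. Of all tested genes, 25.8% had their highest value in subclone 9, 7.26% their highest in subclone 6 and 31.8% their lowest in subclone 10. PSMA3, an alpha ring subunit, was at 11.14 in subclone 9 with the next value at 10.64, a gap of 0.58 of the range. PSMD9, a base assembly chaperone, was at 8.07 in subclone 6 with the next at 7.57 (0.56 of the range). PSMD13, a lid subunit, was at 7.38 in subclone 10 with the next at 7.79 (0.49 of the range); this array also had the lowest median of all, and the part of this in the value was not tested.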

How the results depend on the processing

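Main results of the proteasome genes were recomputed under each alternative. A reversal was defined only for class deviations at or past their spread between subclones, and none of these reversed. Against the limit set for each result, 568 values stayed within it and 23 moved beyond it. This limit was 1.5 times for a count and the spread between subclones for a class deviation. It was the spread between genes for the median SD and for r within a class, and a fixed difference for r between constitutive and immune subunits. By test, the robust fit called 0 genes under every setting, the non-robust fit 0 (321 before adjustment), whereas the chi-square test called 1441 genes, among them 6 proteasome genes; the wider calls follow from its construction. By normalization, quantile normalization of the table gave 8 genes of at least 2-fold range in place of 14, a mean r of 0.145 between constitutive and immune subunits in place of 0.25, and 11 pairs set apart below in place of 17; in subclone 10 the genes set apart below were 3 with centred arrays and 0 after quantile normalization, in place of 5. Genes above their own mean were 4 (centred) and 6 (quantile) in place of 11 in subclone 2, 4 (centred) in place of 10 in subclone 3, 14 and 13 in place of 8 in subclone 10, and 20 in both in place of 13 in subclone 11; both settings remove the shift of the arrays. By fold, 32 genes had a range of at least 1.5-fold, and with 2-fold as the limit 4 pairs were set apart above (3 of them in subclone 9) and 1 below (0 in subclone 10). The shares of all tested genes at these other folds were not computed. Leaving out each subclone in turn gave a mean r of 0.53 to 0.71 among immune subunits (lowest without subclone 1, highest without 9), 0.14 to 0.31 between constitutive and immune subunits (lowest without subclone 10), 11 to 16 pairs set apart below and 6 to 13 genes above their mean in subclone 2. The causes were not tested. The relative values of the constitutive subunits kept their sign in all 15 settings in subclones 2, 3, 5, 6, 8, 9 and 12, with 0.26 to 0.40 in subclone 9 and -0.30 to -0.19 in subclone 5, and those of the immune subunits in subclones 1, 3, 5, 6, 10 and 11. No paired analysis was possible because there is 1 group and 1 array per subclone.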
